A study of Mus musculus with 11 samples.

Results

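The anti-Rtl1 miRNAs are a group of microRNAs in the imprinted Dlk1-Dio3 region of mouse chromosome 12. Their hairpins lie on the strand opposite to Rtl1. Members were taken by name from the deposited miRNA table, as all rows of the hairpins miR-127, miR-136, miR-337, miR-431, miR-433 and miR-434. Of the 592 miRNAs in the table, 8 are members, from 5 of these 6 hairpins. They are miR-431-5p, miR-433-3p, both arms of miR-127, both arms of miR-434 and both arms of miR-136. The table has no row for miR-337-5p, miR-337-3p, miR-431-3p and miR-433-5p.

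The libraries came from male C57BL/6 mouse embryonic stem (mES) cells that carried floxed Trim71 alleles and Rosa26-CreERT2, a Cre recombinase switched on by 4-hydroxytamoxifen (4-OHT). Trim71 encodes an RNA-binding protein of early embryonic cells, and recombination removes its last exon. The Trim71-/- cells had received 500 nM 4-OHT for 2 days and were then grown for at least 7 days, according to the labels. The Trim71fl/fl controls carried the same alleles without the deletion and, by the study's methods, received the solvent. Those methods describe a lower 4-OHT concentration and a shorter culture. All cells were kept with serum and LIF, and differentiated cells were depleted by magnetic sorting for the surface antigen SSEA-1. The table holds 5 Trim71-/- and 6 Trim71fl/fl libraries from 2 clones. Clone 1 gave 1 library of each genotype on days 1, 5 and 6, and clone E3 on days 3 and 4. A further Trim71fl/fl library of clone E3, from day 2, had no partner. The comparison asked whether mES cells without Trim71 differ in these miRNAs from floxed cells of the same clone and day.

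Values are normalized read counts that the authors corrected for batch and did not let fall below 1. In 591 of 592 miRNAs the Trim71-/- and Trim71fl/fl values of a day had the same sum on all days, within 0.1% and leaving out days with a value at 1. Each pair therefore gives 1 difference, and the 6 member values set to 1 stand for values that were below 0 before. The correction kept same-day differences in counts. It did not keep the base level of a day or clone, so ratios and log2 differences use a level shared by all days, and whether the clones differ in their own base level cannot be told from these values. In all 592 miRNAs the unpaired day 2 library was identical, within 0.1%, to the average of its Trim71fl/fl counterparts once their values at 1 were replaced by those recovered from the sums, and it was left out. Read depth is unknown. The summed values were 3751519 to 5551715 in Trim71-/- libraries and 2742673 to 4332525 in their Trim71fl/fl partners. The deletion was not checked here, because the table holds miRNAs only. The labels do not say whether the days are separate cultures, and p-values measure only the spread between these 5 pairs. In bulk RNA, fewer cells with a miRNA and less of it in each cell cannot be told apart.

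The Dlk1-Dio3 region is imprinted: Rtl1, a gene derived from a retrotransposon and needed in the placenta, is expressed from the paternal chromosome, and the non-coding RNAs and miRNAs from the maternal one. Because the anti-Rtl1 miRNAs are made from the strand opposite to the Rtl1 coding sequence, they pair with Rtl1 mRNA along their whole length and direct its cleavage. The maternal transcripts of the region are known to be silenced in some pluripotent cell lines and active in others.

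On GRCm38, Rtl1 lies on the minus strand at chr12:109589193-109600330. Its coding sequence, in exon 2, spans 109590172 to 109595403. The 5 hairpins with rows lie on the plus strand inside this coding sequence. From the end towards the start of the Rtl1 reading frame they are Mir431 (chr12:109590447-109590537), Mir433 (chr12:109591715-109591838), Mir127 (chr12:109592846-109592915), Mir434 (chr12:109594506-109594599) and Mir136 (chr12:109595327-109595388). Mir337 (chr12:109585789-109585885) lies outside the Rtl1 gene as annotated in GENCODE M21.

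The mature sequences, from RefSeq (GRCm38.p6), are shown because each member carries its own seed. Bases 2 to 8, the seed that pairs with most targets, are in capitals.
miR-431-5p: uGUCUUGCaggccgucaugca
miR-433-3p: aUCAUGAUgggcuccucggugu
miR-127-5p: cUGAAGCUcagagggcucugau
miR-127-3p: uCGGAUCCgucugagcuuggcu
miR-434-5p: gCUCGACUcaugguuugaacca
miR-434-3p: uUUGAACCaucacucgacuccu
miR-136-5p: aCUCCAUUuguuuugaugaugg
miR-136-3p: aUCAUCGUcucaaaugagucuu

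All 8 members matched a RefSeq entry, and they are 21 or 22 bases long. None of the 8 seeds occurs under another of the 1679 mature miRNA names in RefSeq. Among the 28 pairs of members the closest seeds differ at 2 positions, in miR-433-3p with miR-136-3p and in miR-434-5p with miR-136-5p. What the members share instead is their place. For all 8, the exact reverse complement of the whole mature sequence was found once in the Rtl1 transcript. The sites of the member with the largest difference between the clones and of the most abundant member are shown in the sense of Rtl1 mRNA, with the bases that face the seed in capitals.
Rtl1 site of miR-136-5p: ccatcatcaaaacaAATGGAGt
Rtl1 site of miR-127-3p: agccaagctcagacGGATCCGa

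The site of miR-136-5p covers bases 52 to 73 of the coding sequence, near its start, and the site of miR-127-3p covers bases 2495 to 2516.

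In Trim71fl/fl cells the members differed widely in level. The order of mean normalized read counts was miR-127-3p (4025), miR-434-5p (535), miR-136-5p (453.5), miR-434-3p (238), miR-433-3p (229.9), miR-127-5p (89.0), miR-431-5p (88.3) and miR-136-3p (76.4). Mature miRNAs of nearly equal length can be compared without a length correction, although capture in the library can differ between sequences. miR-127-3p was 7.52 times as abundant as the next member, and its values did not overlap with those of miR-434-5p. A second gap lay between miR-433-3p and miR-127-5p, at a ratio of 2.58 without overlap. The other 5 neighbours in the order overlapped in their ranges. In both genotypes these ranges mirror the same-day genotype differences, since base levels of days were not kept. They do not show how far a level varied between libraries. Among all 592 miRNAs, miR-127-3p ranked 70 and miR-136-3p ranked 364 by mean in Trim71fl/fl cells. In Trim71-/- cells the order of the first 5 members was the same, but all neighbours overlapped.

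All 8 members had lower means in Trim71-/- than in Trim71fl/fl cells. Summed over the members, the normalized read counts were 719, 2336, 3019, 3033 and 1037 in Trim71-/- libraries on days 1, 3, 4, 5 and 6. In the Trim71fl/fl partners they were 7501, 5298, 4614, 4631 and 6636. The groups did not overlap, which largely follows from sums lower on every day, as same-day values mirror each other. miR-127-3p made up 64.5% to 77.2% of the Trim71fl/fl sums. In Trim71-/- libraries it made up 0.139% on day 1, where it was set to 1, and 61.5% to 81.3% on the other days. Of a library's total, the members held 0.0166% to 0.0805% in Trim71-/- and 0.107% to 0.200% in Trim71fl/fl cells.

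**Figure D1:**
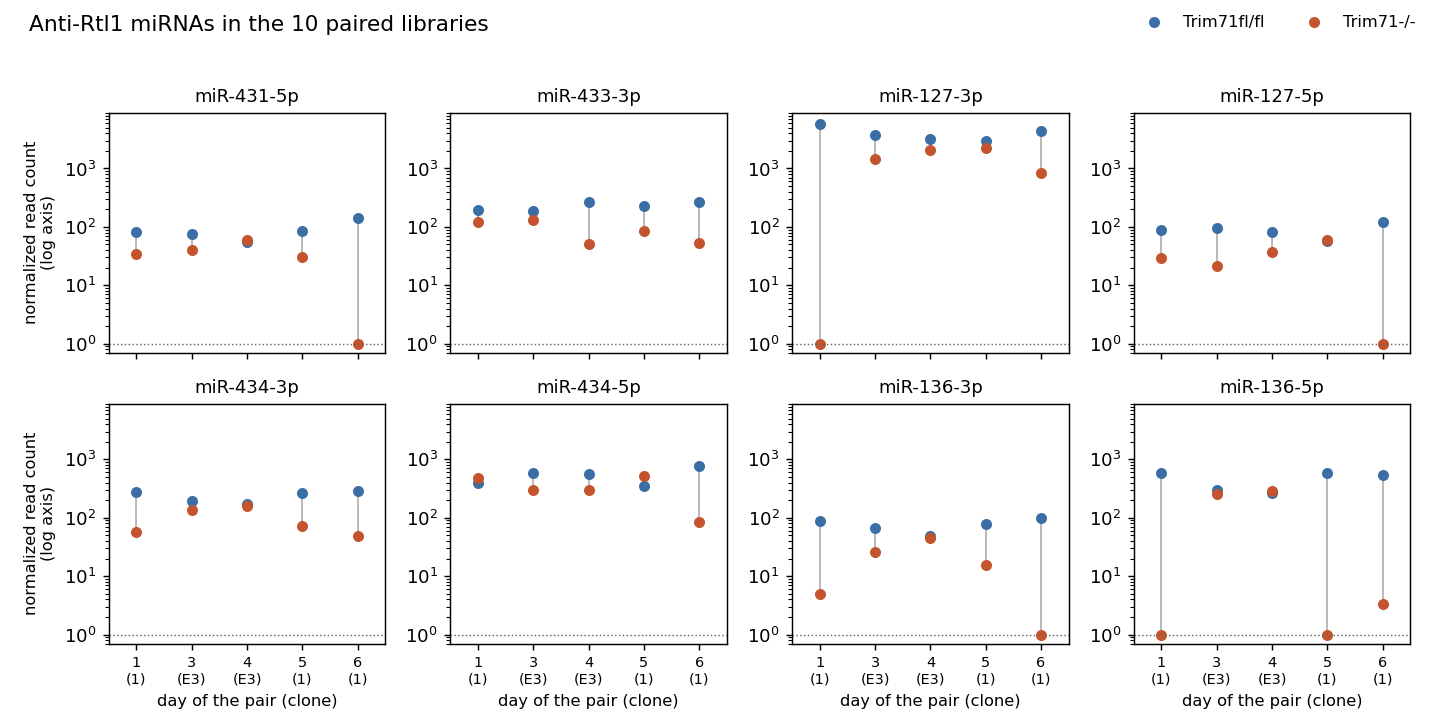
Normalized read counts (log axis) of the 8 anti-Rtl1 miRNAs in the 10 paired libraries, by day of the pair and with the clone in brackets; grey lines join same-day libraries and the dotted line marks the authors' lowest value of 1. Points of Trim71-/- cells lie below their partners on all 5 days for miR-433-3p, miR-127-3p, miR-434-3p and miR-136-3p, and the 6 values at 1 are all from Trim71-/- libraries of clone 1.

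Starting at the hairpin nearest the end of the Rtl1 reading frame, miR-431-5p is known to lower Pax7 in muscle stem cells. It was at 33.8, 39.6, 59.5, 30.2 and 1 in Trim71-/- libraries on days 1, 3, 4, 5 and 6. The Trim71fl/fl partners were at 81.8, 75.9, 56.1, 85.4 and 142.4. It was lower on 4 of 5 days, with day 4 of clone E3 as the exception, so the groups overlapped. Its log2 fold change was -1.94 ± 0.91 (SE, n = 5 pairs; limma, unadjusted p = 0.0761), which did not pass the thresholds of the study. These are a fold change over 1.5 with an unadjusted p under 0.05. Without day 6, which holds the value at 1, it was -0.89, and it passed in 8 of 19 alternative fits. All log2 fold changes here are on the scale of log2(value + 1), which understates changes of low values, while a value at 1 gives its pair a large log2 difference that has no exact size.

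miR-433-3p, which is known to target Fgf20, was at 120.3, 129, 50.7, 85.6 and 53.6 in Trim71-/- libraries. The Trim71fl/fl partners were at 197, 189, 267, 232 and 264. Every Trim71-/- value was below every Trim71fl/fl value, and no value was at 1. The means were 87.8 ± 36.4 and 229.9 ± 36.4 (SD, n = 5), the SDs being equal because same-day values mirror each other. The log2 fold change was -1.47 ± 0.38 (SE; limma, unadjusted p = 0.00815). miR-433-3p was past the thresholds under every alternative fit except clone E3 alone.

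miR-127 is the member best known in the placenta, where its loss disturbs the labyrinth. Its 3p arm was at 1, 1436, 2085, 2252 and 843 in Trim71-/- libraries. The partners were at 5792, 3801, 3153, 2986 and 4394. It was lower on all 5 days, so mirrored same-day values could not overlap. Day 1 stood apart, with the lowest Trim71-/- value and, through the same mirroring, the highest Trim71fl/fl value. The log2 fold change of -3.26 ± 1.71 (SE; limma, unadjusted p = 0.105) rested on that day and did not pass. Without day 1 it was -1.20 and past the thresholds.

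The 5p arm of miR-127 was at 29.0, 21.8, 36.9, 59.4 and 1 in Trim71-/- libraries. Its partners were at 88.6, 95.8, 80.7, 58.1 and 122. It was lower on 4 of 5 days, and on day 5 both libraries were nearly equal. The log2 fold change was -2.14 ± 0.85 (SE; limma, unadjusted p = 0.0458), past the thresholds. This call was lost without day 1, day 3 or day 4, with log2 fold changes of -2.28, -2.15 and -2.39, and with a pseudocount of 0.1 (-2.33). Without day 6, which holds the value at 1, it was -1.18 and still past.

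The arms of miR-434 differed from each other in how regular their difference was. miR-434-3p was at 56.8, 138, 157, 71.4 and 48.1 in Trim71-/- libraries and at 276, 195, 176, 261 and 284 in the partners. It was lower on every day without overlap, with a log2 fold change of -1.46 ± 0.45 (SE; limma, unadjusted p = 0.0166). The call was lost without day 1 (-1.26) or day 6 (-1.19). miR-434-5p was at 472, 293.7, 296, 518 and 85.4 in Trim71-/- libraries and at 396, 575, 572, 350.05 and 783 in the partners. It was lower on 3 of 5 days and higher on days 1 and 5, both of clone 1. Its log2 fold change of -0.85 ± 0.58 (SE; limma, unadjusted p = 0.189) did not pass in any fit, and was -0.27 without day 6.

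miR-136, at the start of the Rtl1 reading frame, had the largest ratios of Trim71fl/fl to Trim71-/- means among the members, 4.11 for the 3p and 4.15 for the 5p arm. miR-136-3p was at 4.98, 25.8, 45.7, 15.5 and 1 in Trim71-/- libraries. The partners were at 88.9, 68.1, 48.2, 78.5 and 98.3. It was lower on all 5 days without overlap, with a log2 fold change of -2.65 ± 0.82 (SE; limma, unadjusted p = 0.0176). Without day 1 it was -2.34 and no longer past the thresholds, and without day 4 or day 6 it was -3.30 and -1.91 and still past.

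miR-136-5p was at 1, 252, 289, 1 and 3.33 in Trim71-/- libraries. The partners were at 579.9, 298, 262, 580.2 and 547. The genotypes lay far apart on the 3 days of clone 1 and close together in clone E3, where the Trim71-/- value of day 4 was the higher one. Since base levels were not kept, the values near 1 do not give the amount of miR-136-5p in these cells. The log2 fold change was -4.69 ± 1.57 (SE; limma, unadjusted p = 0.0238), past the thresholds. Without day 1, 5 or 6 this call was lost, with values of -3.82, -3.82 and -4.12. Without day 3 or 4 it was -5.80 and -5.90 and still past.

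Of the 8 members, 5 fell past the thresholds of the study, 0 rose, and 3 did not pass (miR-431-5p, miR-127-3p and miR-434-5p). Of all 592 miRNAs, 27, or 4.56%, fell past these thresholds and 5, or 0.845%, rose. When each library was divided by its total instead, 48 fell and 2 rose, and the median of all miRNAs moved from 0.03 to -0.24 on the log2 scale. The 8 members moved with it, to between -4.90 and -1.12. The median log2 fold change was -2.04 over the members (-1.23 without day 6, -0.84 in clone E3 alone) and 0.03 over all miRNAs. After Benjamini-Hochberg adjustment over 592 miRNAs in limma, 0 members passed 0.05, with adjusted p-values of 0.607 to 0.645. In the table as a whole 0 passed, against 32 at an unadjusted p under 0.05.

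Lower on all 5 days were 4 members, against 37 of 592 miRNAs, or 6.25%. The same 4 had no overlap between the genotypes, again against 6.25% of the table, since equal same-day sums make these counts identical. For each of these 4, an exact two-sided permutation test that swapped same-day libraries gave p = 0.0625, and 5 pairs cannot give a smaller p. The other 4 had exact permutation p-values of 0.125 to 0.25.

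The same pairs were then read by clone. The median of the 8 same-day log2 differences was -1.92, -1.45 and -4.41 on days 1, 5 and 6 of clone 1. It was -0.94 and -0.38 on days 3 and 4 of clone E3, while the median of all miRNAs lay between -0.02 and 0.02 on these days. In clone E3, 8 members were lower on day 3 and 6 on day 4. In clone 1, 7 were lower on day 1, 6 on day 5 and 8 on day 6. All 6 values at 1 were in Trim71-/- libraries of clone 1, and they make up 15.0% of the members' 40 Trim71-/- values, against 2.36% over all miRNAs. Averaged within clones, all 8 members were lower in both, and 7 of 8 fell further in clone 1 on the log2 scale. The median of clone E3 minus clone 1 was 2.21 over the members and 0.007 over all miRNAs. Of the 7, miR-433-3p fell almost alike in both clones, at -1.47 and -1.46. Without day 6, clone E3 minus clone 1 turned below 0 in miR-433-3p (-0.39) and miR-127-5p (-0.82).

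**Figure D2:**
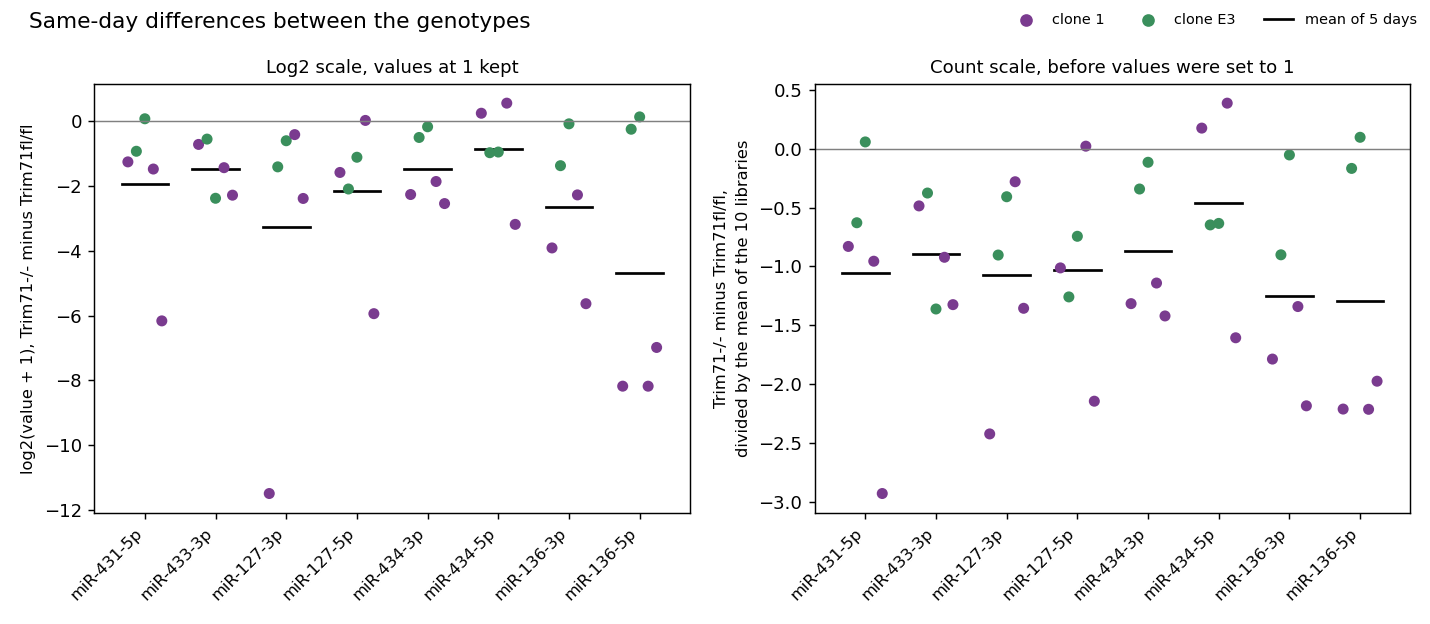
Same-day differences of the 8 members, Trim71-/- minus Trim71fl/fl, as log2(value + 1) on the left and as counts before values were set to 1, divided by the mean of the 10 libraries, on the right. Points are days, coloured by clone, and black lines are means of 5 days; the clone E3 points of miR-136-5p lie near 0 on both scales, and those of clone 1 lie far below.

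The difference between the clones was tested in limma as the interaction of genotype and clone. In miR-136-5p the log2 difference was -7.78 ± 0.69 (SD, n = 3 days) in clone 1 and -0.05 ± 0.27 (SD, n = 2 days) in clone E3. The interaction was 7.73 ± 0.64 (SE; limma, unadjusted p = 4.95e-05, adjusted p = 0.0293). The count differences give the same order. Trim71fl/fl exceeded Trim71-/- cells by 609.1, 609.7 and 543.9 counts on days 1, 5 and 6, by 46.0 on day 3, and was 26.9 lower on day 4. On this untransformed scale the interaction had an unadjusted p of 0.00107 in limma and an adjusted p of 0.506. On the log2 scale it missed 0.05 after adjustment without any single day, at 0.0530 to 0.638, and with a pseudocount of 0.1, at 0.0592. The interaction itself was 7.53 to 8.13 with 1 day left out and 8.42 with that pseudocount.

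miR-136-3p and miR-434-3p had the same direction. Their interactions were 3.22 ± 1.13 (SE; limma, unadjusted p = 0.0339) and 1.89 ± 0.55 (SE; limma, unadjusted p = 0.0165), with an adjusted p of 0.627 in both. Differences in miR-434-3p were 218.8, 189.7 and 236 counts in clone 1 and 56.9 and 19.1 in clone E3. Thus 3 of 8 members had an unadjusted p under 0.05, against 33 of 592 miRNAs, or 5.57%. This count was 1 without day 1 or day 4 and 2 without day 3 or day 6. The interaction of miR-136-3p ranged from 2.37 without day 6 to 4.05 without day 5, and that of miR-434-3p from 1.72 to 2.07. With 1 day left out, the unadjusted p of miR-136-3p (limma) was 0.0102 without day 5 and 0.0551 to 0.175 without any other day.

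With all 5 pairs and the deposited values, miR-433-3p showed the least difference between clones. Its log2 difference was -1.47 ± 0.79 (SD, n = 3 days) in clone 1 and -1.46 ± 1.29 (SD, n = 2 days) in clone E3. The interaction was 0.01 ± 0.84 (SE; limma, adjusted p = 0.998). Its SE leaves room for a clone difference of either sign. The interaction of miR-433-3p was -0.90 without day 3, 0.93 without day 4 and 0.53 after division by library totals. In these fits that of miR-434-5p was smaller in size, at -0.16, -0.18 and 0.35. In clone E3 alone, from 2 pairs, miR-127-5p fell past the thresholds, as did 28 of all 592 miRNAs, or 4.73%. In clone 1 alone, from 3 pairs, miR-433-3p, miR-434-3p, miR-136-3p and miR-136-5p did, as did 45 of 592, or 7.6%.

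A hairpin yields a 5p and a 3p arm, which are usually kept in different amounts. For the 3 hairpins with both arms in the table, the log2 ratio of 5p to 3p was taken in each library. In Trim71fl/fl cells it was -5.48 ± 0.35 for miR-127, 2.51 ± 0.29 for miR-136 and 1.13 ± 0.61 for miR-434 (SD, n = 5). Thus the 3p arm of miR-127 was 44.6 times as abundant as the 5p arm, while in miR-136 and miR-434 the 5p arm led by 5.70 and 2.19 times. In Trim71-/- cells the ratios were -4.36 ± 4.82, 0.47 ± 2.71 and 1.74 ± 1.10. Of the 6 values at 1, 5 belong to arms of these hairpins, all in Trim71-/- cells, and the spreads were not compared by a test. The differences, Trim71-/- minus Trim71fl/fl, of 1.12, -2.04 and 0.61 were within their SDs of 5.14, 2.98 and 1.70. An exact two-sided permutation within days gave p = 0.9375, 0.25 and 0.5 (adjusted over the 3 hairpins, 0.9375, 0.75 and 0.75). Without day 1 the difference of miR-127 was -1.08, and with 1 day left out it ranged up to 2.29. That of miR-136 ranged from -2.83 without day 3 to -1.07 without day 5, and that of miR-434 from 0.13 without day 1 (0.15 without day 5) to 0.95 without day 4. Ratios of miR-136 turned negative on days 1 and 5, when the 5p value was at 1.

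**Figure D3:**
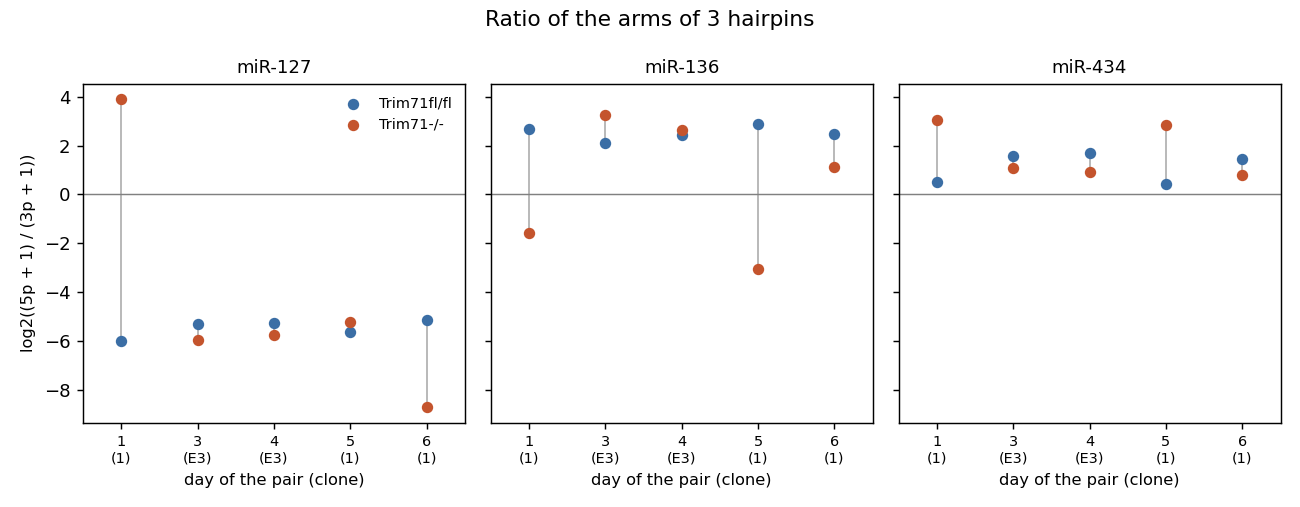
Log2 ratio of the 5p to the 3p arm, (5p + 1)/(3p + 1), of miR-127, miR-136 and miR-434 by day of the pair, with the clone in brackets; grey lines join same-day libraries. The lowest and highest ratios of miR-127 are Trim71-/- points of days 6 and 1, and every arm value at 1 lies in a Trim71-/- library of clone 1.

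The rest of the Dlk1-Dio3 region in the table was 40 miRNAs, of which 14 (35%) fell past the thresholds and 0 rose. Their median log2 fold change was -1.93, with -1.19 without day 6 and -0.82 in clone E3 alone. Of all miRNAs outside the region 8 fell, or 1.47%. The median same-day log2 difference of these 40 was -1.09, -0.90 and -2.83 on days 1, 5 and 6 and -0.50 and -0.97 on days 3 and 4. Members and the rest were not tested against each other, and both were low on every day. Log2 fold changes ranged from -3.99 for miR-410-3p to 0.70 for miR-1247-3p in the rest and from -4.69 to -0.85 in the members.

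**Figure D4:**
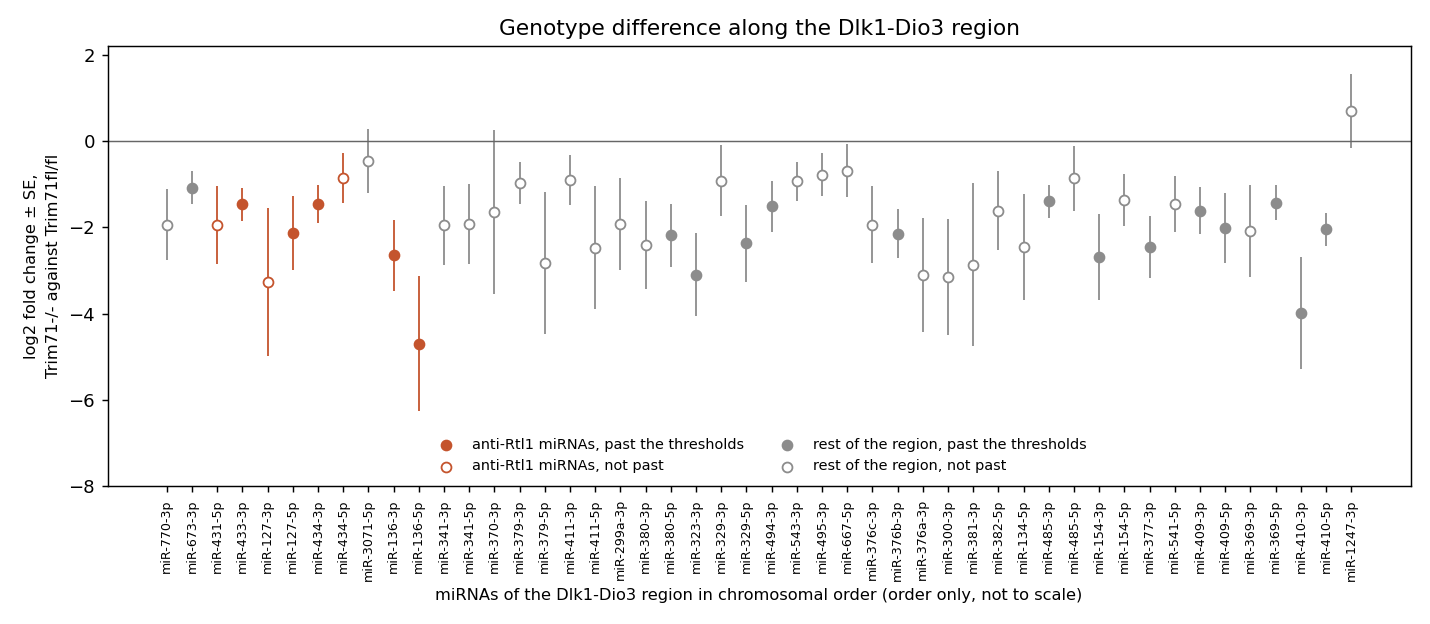
Log2 fold change of Trim71-/- against Trim71fl/fl cells with its SE (limma) for the 48 miRNAs of the Dlk1-Dio3 region, in chromosomal order and not to scale. Filled points were past the thresholds; the 8 members (red) and the other miRNAs up to miR-410-5p lie below 0, and miR-1247-3p near Dio3 lies above.

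One of these 40 comes from the same place but the other strand. miR-3071-5p, whose hairpin overlaps Mir136 on the minus strand, was at 11.9, 17.6, 7.15, 11.8 and 1 in Trim71-/- libraries. Its partners were at 10.3, 4.54, 15.0, 10.4 and 21.4. It ranked 548 of 592 by mean in Trim71fl/fl cells and was lower on 2 of 5 days. Its log2 fold change was -0.47 ± 0.74 (SE; limma, unadjusted p = 0.547).

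The 10 other miRNAs nearest to the median day profile of the members were found by the root mean square distance over the 5 log2 differences, among 584 miRNAs. The nearest were miR-494-3p (0.55) and miR-369-5p (0.90), both from the Dlk1-Dio3 region. The rest of the region held 40 of the 584 miRNAs searched, and 8 of the 10 nearest belonged to it. The other 2 were miR-451a (0.98), an erythroid miRNA, and miR-3475-3p (1.12). This is a description over 5 points per miRNA, all from the same 10 libraries.

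The cell type of the libraries was checked with marker miRNAs. The 23 miRNAs of the miR-290 to miR-295 and miR-302 to miR-367 clusters, typical of mES cells, made up 54.2% to 58.3% of the values in Trim71-/- and 55.6% to 58.5% in Trim71fl/fl cells. None was past the thresholds (0 of 23). Of 10 fibroblast and mesenchyme miRNAs, 8 had rows, with sums of 13640.3 to 35538 in Trim71-/- and 13413 to 35331 in Trim71fl/fl libraries. Of 6 neural miRNAs, 4 had rows, with sums of 5577 to 8969 and 3216 to 6608. The Trim71-/- sum exceeded its partner on days 1, 3, 5 and 6, as did the mES cell and fibroblast sums and the library totals. Neural miRNAs made up 0.149% to 0.177% of the values in Trim71-/- and 0.117% to 0.153% in Trim71fl/fl libraries. For fibroblast and mesenchyme miRNAs these shares were 0.364% to 0.713% and 0.476% to 0.815%. All 4 neural miRNAs had fitted log2 fold changes above 0, with a median of 0.58. None of these 12 was past the thresholds. The blood list held 5 names, and both arms of miR-142 were listed under 2 names each. Rows were found for miR-142-3p and miR-142-5p. On days 1, 3, 4, 5 and 6 their sums were 497, 1413, 1722, 520 and 1445 in Trim71-/- libraries. The Trim71fl/fl partners were at 2996, 2037, 1728, 2929 and 2005. The genotypes were nearly equal on day 4, and mirrored same-day values that are lower on every day cannot overlap. Of miR-142-3p and miR-142-5p, 1 fell past the thresholds. The part of these markers in the members' differences was not tested.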

How the data were processed

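The authors sequenced small RNA libraries on an Illumina HiSeq, demultiplexed and trimmed the reads with CASAVA 1.8 and FLICKR, aligned them with Bowtie2 2.2.1 to miRBase (mm10) and counted them in Partek 6.6. The labels name another library kit. The deposited values are a signal: read counts normalized with DESeq2, corrected for batch by the authors and raised to 1 where lower. Values below 0 before that step were recovered as the constant same-day sum minus the partner.

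Genotypes were compared with limma 3.58.1 (R 4.3.3) on log2(value + 1) over 592 miRNAs, fitting genotype plus a block for day, with Benjamini-Hochberg adjustment, and between clones by an interaction. The pairing comes from the labels, which give both libraries of a day the same clone. Same-day deviations correlated at -0.65 to -0.41, as mirrored values must. The fit was tested on simulated data. Positions came from GENCODE M21, sequences from RefSeq. All members are named; other miRNAs are named if nearest in day profile, or singled out after their values were seen. The members, lists and thresholds were chosen with earlier results of these data known. Alternatives were other blocks, libraries left out, scalings, pseudocounts (0.1, 10), untransformed values, trend and a minimum mean of 50. Tables were handled with Python 3.11.15 and pandas 2.3.3.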

Additional observations from a re-analysis of the deposited data

Results flagged for a closer look

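Between the clones, 3 of 8 members differed at an unadjusted p under 0.05 in the interaction of genotype and clone (limma), against 33 of 592 miRNAs, or 5.57%. The log2 difference between Trim71-/- and Trim71fl/fl cells was higher in clone E3 than in clone 1 by 7.73 for miR-136-5p, by 3.22 for miR-136-3p and by 1.89 for miR-434-3p. The count was 1 without day 1 or day 4 and 2 without day 3 or day 6. After adjustment over all miRNAs miR-136-5p alone passed, with an adjusted p of 0.0293 in limma. That call was lost when any single day was left out (0.0530 to 0.638), with a pseudocount of 0.1 (0.0592) and on untransformed values before the floor (0.506). The log2 interaction of miR-136-5p was 7.53 to 8.13 with 1 day left out and 8.42 with a pseudocount of 0.1. In the 16 groups of values of the 8 members, Dixon's test marked 0 libraries on the count scale and 3 on log2(value + 1), where chance marks about 1 in 20 groups. These were Trim71-/- libraries of clone 1 with a value at 1, day 1 for miR-127-3p and day 6 for miR-431-5p and miR-127-5p.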

How the results depend on the processing

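All 8 members had a log2 fold change below 0 in each of the 151 values from the alternative fits, and their median ranged from -2.73 in clone 1 alone to -0.84 in clone E3 alone. In place of 5, the number of members that fell past the thresholds was 2 to 4 when 1 day was left out (2 without day 1, 3 without day 6), while over all miRNAs it was 11 without day 1, 15 without day 6 and up to 44 without day 4, in place of 27. It was 1 of 28 in clone E3 alone and 4 of 45 in clone 1 alone. It was 6 of 48 after division by totals, 6 of 31 with a pseudocount of 10, and 7 of 44 on untransformed values, before the floor or as deposited. The fit on deposited untransformed values and the clone comparison before the floor were chosen after seeing the data. Without the replicate block, which counts mirrored libraries as independent, 6 members passed, and miR-433-3p had an adjusted p of 0.0422 in limma. In the table as a whole, 59 then fell and 42 rose, against 27 and 5 with the pairing. In clone 1 alone miR-136-5p had an adjusted p of 0.0454 in limma. With all 11 libraries, also without the block, miR-433-3p, miR-434-3p and miR-136-3p had 0.0147, 0.0318 and 0.0488. That fit counts the day 2 library as a replicate, although it equals the average of its Trim71fl/fl counterparts and adds no independent values. Over all miRNAs 36 then passed adjustment, against 9 in the paired libraries without the block. The rest of the region had 25 falls without the block or with clone in place of day, 28 with all 11 libraries and no block, 24 after division by totals with or without the region, 23 on untransformed values before the floor and 25 on the deposited ones, 6 at a mean of at least 50, and 6 to 14 with 1 day left out. Members with a clone difference numbered 1 to 3 with 1 day left out. The cause of these shifts was not tested. Depth is unknown, so no counting error could be given.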

Other observations

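Elsewhere in the Dlk1-Dio3 region, 6 of 40 miRNAs had an interaction of genotype and clone at an unadjusted p under 0.05 in limma, against 33 of 592, or 5.57%, in the table as a whole, and 0 after adjustment. These were miR-410-3p (5.92), miR-154-3p (4.55), miR-380-3p (3.94), miR-377-3p (2.88), miR-494-3p (2.27) and miR-379-3p (1.97), named after their values were seen. In all 6 the log2 difference was higher in clone E3, as in miR-136-5p. Of all 40, 27 were higher and 13 lower in clone E3.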
